A study of Mus musculus with 6 samples.

Results

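The genes described here make the proteins that package pre-mRNA and cut out its introns, together with the RNA-binding motif (RBM) genes and Cirbp. They were chosen by symbol in the platform's probe annotation: names that begin with Hnrnp, Sf3a, Sf3b or Snrp, names that begin with Srsf, Sfrs or Rbm and a digit, and Cirbp. Only probe sets that the annotation assigns to 1 gene were used, and the probe set with the highest mean over the 6 arrays stood for its gene. The rule found 66 genes of the 12393 with a single-gene probe set: 18 hnRNP genes, 9 SR protein genes, 9 SF3 genes, 8 snRNP genes, and 22 made up of RBM genes and Cirbp. No measured difference entered the rule, but the set was chosen with earlier results of these data known.

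Whole pituitary glands were profiled on 3 Affymetrix arrays labelled Bmal1-/- (replicates 4 to 6) and 3 labelled wild type (replicates 1 to 3). The mice, male C57BL/6J of 8 to 12 weeks, lived under 12 h of light and 12 h of dark and were killed at zeitgeber time 12, when the lights go off. Each array carried 1 µg of RNA from a pool of 3 glands of 1 genotype, so a replicate is a separate set of animals and n = 3 for every mean. The sources used here do not say how the Bmal1-/- allele was made or in which cells it is lost. BMAL1, encoded by Arntl, forms a dimer with CLOCK or NPAS2 that activates the genes of the circadian clock, and the series asks what its loss does to the pituitary transcriptome at that hour. Values are linear array intensities, and the number of arrays limits their precision.

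As background, hnRNP proteins coat nascent pre-mRNA and steer splice site choice, export and decay, while SR proteins bind exonic enhancers and recruit the splicing machinery. The SF3a and SF3b complexes belong to the U2 snRNP, which recognises the branch point, and the Snrp genes encode proteins of the spliceosomal snRNPs, the Sm ring among them. CIRBP and RBM3 are RNA-binding proteins whose mRNAs rise with mild cooling, and in mouse fibroblasts CIRBP affects the polyadenylation of clock mRNAs.

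The arrays were close to each other, with Pearson's r across tested probe sets of 0.97 to 0.976 for arrays of different genotype and 0.98 to 0.986 for arrays of the same one. The Arntl probe set read higher on the arrays labelled Bmal1-/-, at 112.1, 102 and 127.5, against 39.6, 51.7 and 38.6 on wild-type arrays. The sources used here do not place that probe set inside or outside the deleted sequence, so it checks nothing about the labels. The median intensity of an array was 31.7 to 32.2 on the Bmal1-/- arrays and 33.5 to 34.3 on the wild-type arrays, although the trimmed mean was 100 on all 6. The log2 ratios of 3' to 5' control probe sets overlapped between genotypes, at 0.64 to 0.88 in Bmal1-/- and 0.73 to 0.9 in wild type for Actb. Gh, Prl, Pomc and Cga, the hormone genes that mark the gland, were bright on every array.

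The summed levels of 4 of 6 lists of cell type markers did not overlap between genotypes. Of single tested genes 26.4% did not overlap, and no such share was computed for sums. The summed intensity of 10 anterior and intermediate lobe markers was 62014 to 64963.2 in Bmal1-/- glands and 67779.8 to 76833.5 in wild-type glands. That sum is weighted to its brightest genes, Gh, Prl, Pomc and Cga. Of the 10 markers, 7 had a log2 fold change below 0 and 3 above it. Cga and Gh were called lower, and Lhx3 was called higher (0.29, limma adjusted p = 0.0484). The 8 macrophage markers summed to 692.5 to 765.8 in Bmal1-/- and 877.9 to 931.6 in wild type, and all 8 had a log2 fold change below 0. Only C1qa among them was called (-0.48, limma adjusted p = 0.028). The 7 folliculostellate markers summed to 876.6 to 1005.2 in Bmal1-/- and 1321.9 to 1531.1 in wild type, with Cyp2f2 itself at 618.7 ± 83.7 in Bmal1-/- and 1093 ± 79.2 in wild type (SD), and S100b lay under an intensity of 16 on all arrays. Of the 5 folliculostellate markers tested, 3 had values above 0 without passing (Sox9 at 0.18, Fxyd1 at 0.12 and Sox2 at 0.05), and the list's median was 0.05. The 6 posterior lobe markers summed to 190.5 to 213.9 in Bmal1-/- and 141.1 to 168.6 in wild type, with Col25a1, Scn7a and Rax under 16 on all arrays. Mbp made up most of that sum, at means of 143.3 in Bmal1-/- and 95.3 in wild type. Only Mbp and Aqp4 were tested, both above 0, while the untested Gfap had means of 9.4 in Bmal1-/- and 17.9 in wild type. The 8 endothelial markers, at 717.4 to 791 in Bmal1-/- and 587.5 to 728.7 in wild type, and the 3 erythroid ones, at 72.9 to 119 in Bmal1-/- and 70 to 145.4 in wild type, overlapped between genotypes. Plvap, the brightest endothelial marker, was called higher (0.40, limma adjusted p = 0.0287). Of the 8 endothelial markers, 5 lay above 0 and 3 below. The part of these shifts in the results was not tested, and in whole glands fewer cells of a type and less RNA per cell cannot be told apart.

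Because BMAL1 binds the E-box CACGTG, the promoters of the genes were read first. The table of promoter sequences for GRCm38.p6 holds 59 of the 66 genes, and the 250 bases before each start were searched on both strands. An exact E-box lay in 5 of the 59 (8.47%), which are Hnrnpd, Hnrnpf, Rbm15b, Rbm19 and Rbm43, against 1854 of 27025 genes in the table (6.86%). The 3 windows below show the gene with the lowest fold change (Hnrnpdl), its paralogue and chromosomal neighbour Hnrnpd, and Rbm15b, which holds the motif at 2 places. They are chr5:100039223-100039472 for Hnrnpdl, chr5:99978939-99979188 for Hnrnpd and chr9:106887076-106887325 for Rbm15b, all on the minus strand and written 5′ to 3′ towards the start, with E-boxes in capitals. The E-box reads the same on both strands, and none of those found overlaps another motif searched.
Hnrnpdl: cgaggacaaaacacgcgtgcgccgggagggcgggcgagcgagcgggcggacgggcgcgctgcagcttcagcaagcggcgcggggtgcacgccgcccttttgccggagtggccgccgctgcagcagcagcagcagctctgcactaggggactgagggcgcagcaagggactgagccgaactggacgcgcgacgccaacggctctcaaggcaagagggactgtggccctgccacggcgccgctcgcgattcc
Hnrnpd: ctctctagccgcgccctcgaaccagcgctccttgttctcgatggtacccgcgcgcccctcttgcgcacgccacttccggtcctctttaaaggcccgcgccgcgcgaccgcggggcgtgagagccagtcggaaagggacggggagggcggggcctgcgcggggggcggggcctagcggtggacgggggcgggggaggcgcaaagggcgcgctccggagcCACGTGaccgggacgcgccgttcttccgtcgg
Rbm15b: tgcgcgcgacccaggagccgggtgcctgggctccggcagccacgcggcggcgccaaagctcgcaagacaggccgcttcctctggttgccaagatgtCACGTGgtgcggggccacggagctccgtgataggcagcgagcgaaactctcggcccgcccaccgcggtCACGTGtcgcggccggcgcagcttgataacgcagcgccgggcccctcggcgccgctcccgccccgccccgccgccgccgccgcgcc
The Hnrnpdl window holds no E-box, the Hnrnpd window holds 1 whose first base is 32 bases before the start, and those of Rbm15b begin 154 and 86 bases before it. None of the 5 genes with an E-box passed the test between genotypes, with log2 fold changes of 0.04 for Hnrnpd, -0.04 for Hnrnpf, 0.26 for Rbm15b, -0.09 for Rbm19 and 0.05 for Rbm43. Of the 6 genes that did pass, 5 have a window in the table, and it held no E-box in any of them. Of all tested genes 5.68% passed, and 6.86% of genes in the table held an E-box. At such shares, finding none among 5 genes says nothing of a link. Of the other motifs, 2 were about as frequent here as over all genes in the table. These were the nuclear receptor core motif AGGTCA in 9 (15.3% against 15.8%) and the heat shock element core GAANNTTC in 5 (8.47% against 7.73%). The D-box TTATGTAA was in 0 of 59 (0.977% of all genes), and its variant TTACGTAA was in Hnrnpa2b1 alone (1.69% against 0.118% of all genes). The windows of these genes had a median GC content of 60.4%, against 52.4% over all windows. A match is a string of letters and not a shown binding site, and these short windows say nothing of sites elsewhere.

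Differences between genotypes were small for most of these genes. Of the 66, 64 were bright enough to test, and 6 of them (9.38%) changed: Hnrnpc and Sf3b5 were higher in Bmal1-/- glands, and Hnrnpdl, Hnrnpa1, Srsf10 and Sf3b1 were lower (limma, Benjamini-Hochberg adjusted p under 0.05 over 13576 probe sets). Over all 8033 tested genes, 456 (5.68%) were called, 241 higher (3%) and 215 lower (2.68%). The log2 fold change, Bmal1-/- over wild type on the log2(intensity + 16) scale, had a median of -0.01 over the 64 genes, against 0 over all genes. It was below 0 in 33 and above 0 in 31, lay within 0.2 of 0 in 42, and ranged from -0.88 to 0.49. Intensities of the 2 genotypes did not overlap in 23 of the 64 (35.9%), against 26.4% of all tested genes. Of these, 12 were higher and 11 lower in Bmal1-/- glands, against 13.7% and 12.7% of all tested genes. The 11 include Rbm38, which passed the filter only through its wild-type values. The 64 genes were brighter than all tested genes, with median intensities of 272.6 and 106.7. The part of brightness in these shares was not tested.
The number called fell to 3 without Bmal1-/- replicate 4 and to 1 without replicate 5 or 6. It fell to 1 without wild-type replicate 1 and to 2 without replicate 3. Without wild-type replicate 2, 5 were called, but not the same genes. Hnrnpdl, Hnrnpa1 and Srsf10 stayed, Hnrnpc, Sf3b5 and Sf3b1 were lost, and Rbm26 and Rbm38 were newly called. Hnrnpdl was among the called genes each time.
With all arrays set to equal medians, which moves the median of all genes to 0.08, the called genes became 6 higher and 1 lower. Hnrnpc and Sf3b5 were then joined by Rbm14, Rbm12, Rbm5 and Snrpb, and Hnrnpdl alone was lower. At that setting 527 of all genes were called higher and 152 lower.

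**Figure D1:**
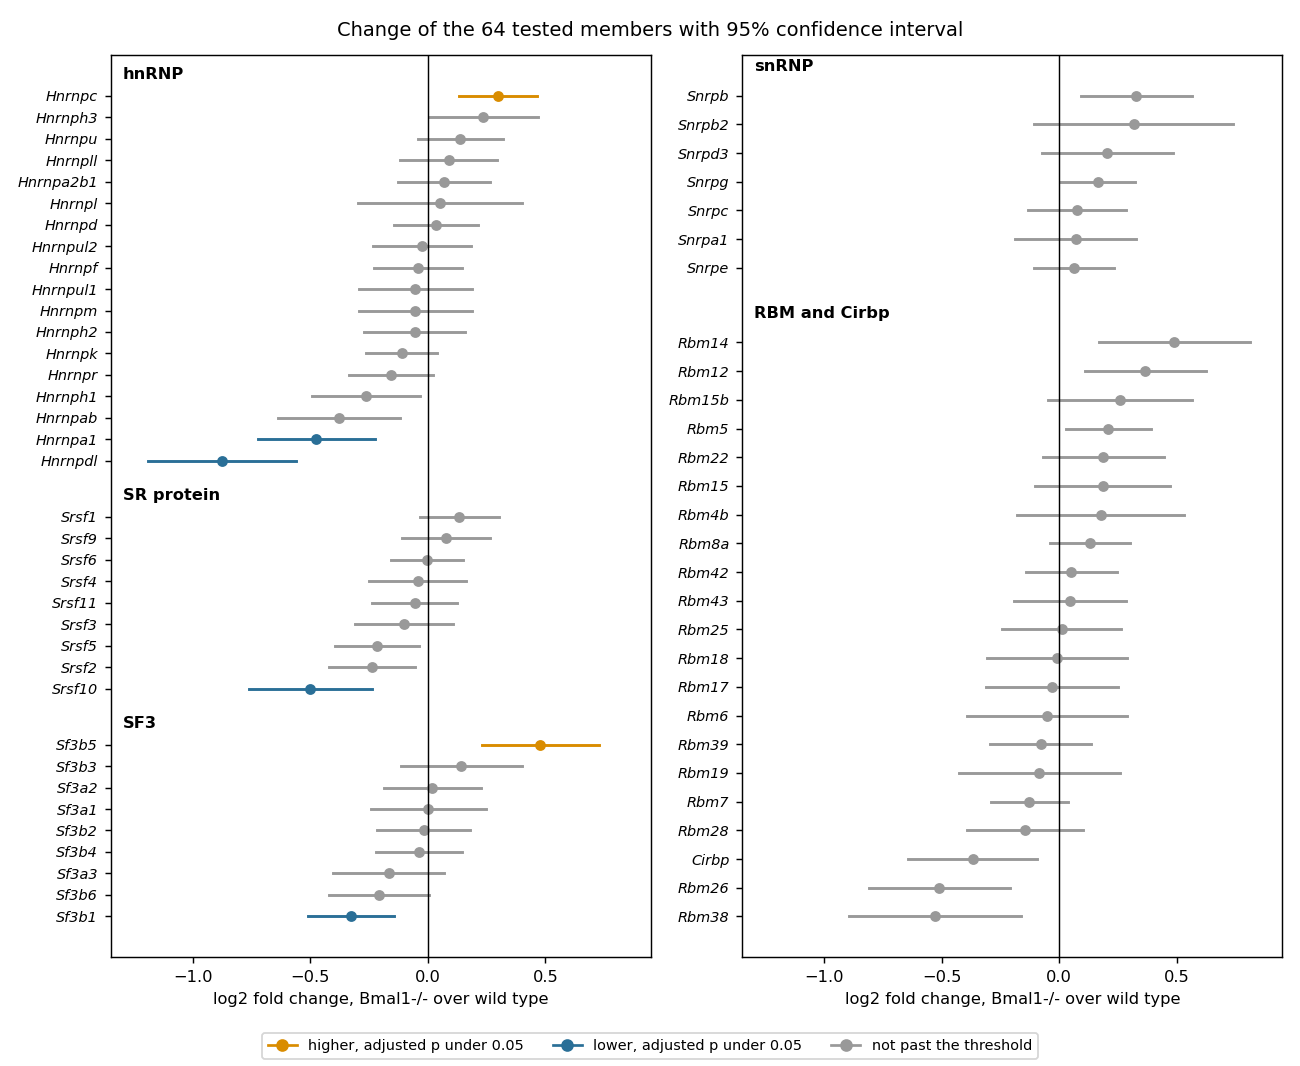
Log2 fold change (Bmal1-/- over wild type) of the 64 tested genes by family, each point with its 95% confidence interval from limma. Hnrnpdl lies furthest to the left at -0.88, Hnrnpc and Sf3b5 are the genes called higher, and all 7 snRNP genes lie right of 0.

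Hnrnpdl, a relative of the AU-rich element binding protein hnRNP D, had the lowest log2 fold change of the family and of all 66 genes. Its intensity was 459, 293.4 and 295.6 on the Bmal1-/- arrays and 628.9, 591.1 and 709.7 on the wild-type arrays. Every Bmal1-/- array lay below every wild-type array, with replicate 4 the highest of the 3. The means were 349.3 ± 94.98 in Bmal1-/- and 643.2 ± 60.6 in wild type (SD, n = 3 each), so that the Bmal1-/- mean was 54.3% of the wild-type mean. The log2 fold change was -0.88 (SE 0.15, 95% interval -1.19 to -0.56, limma adjusted p = 0.00484), and 50 of 8033 genes had a lower one. Hnrnpdl passed under all 17 alternative settings, with adjusted p between 0.000318 and 0.0364 and log2 fold changes of -1.08 to -0.49.

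Hnrnpdl is read by 6 single-gene probe sets, and 4 of them fell. The second brightest gave 259.7, 289 and 266.6 in Bmal1-/- glands against 369.7, 327.1 and 359.3 in wild-type glands, a log2 fold change of -0.35 (limma adjusted p = 0.0385, SE 0.09). The third gave 187.1, 201.7 and 162.5 in Bmal1-/- against 242, 243.6 and 296.6 in wild type, a change of -0.47 (SE 0.11, limma adjusted p = 0.0315). A dim one gave 47.3, 35.3 and 36.9 in Bmal1-/- against 96.7, 55.6 and 79.7 in wild type, a change of -0.72 (SE 0.17, limma adjusted p = 0.0324). In each of these 3 the genotypes did not overlap. The other two, at -0.18 and -0.34, did not pass. The paralogue Hnrnpd, which promotes decay of AU-rich mRNAs, read 432.5, 422.5 and 447.5 in Bmal1-/- glands and 406.6, 404.8 and 459.4 in wild-type glands, with a 95% interval of -0.14 to 0.22 around 0.04 (limma adjusted p = 0.851).

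**Figure D2:**
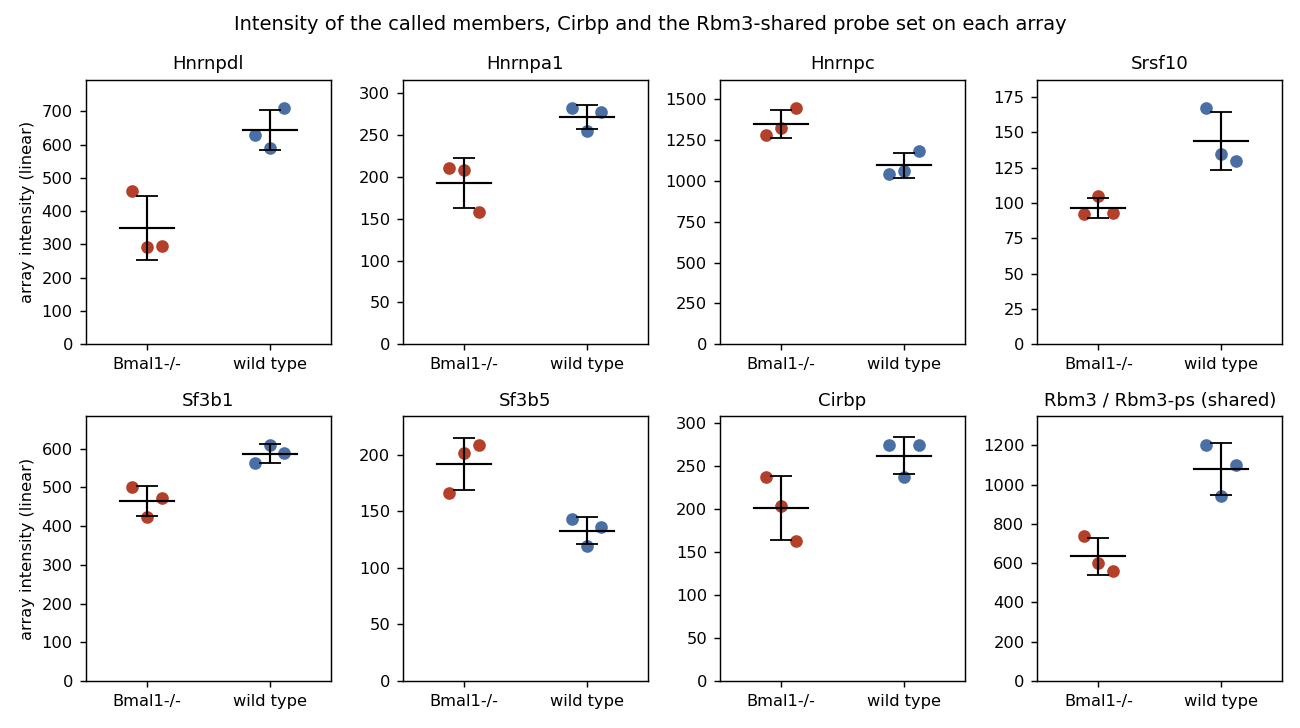
Linear array intensity of the 6 called genes, Cirbp and the probe set shared by Rbm3 and its pseudogene, with Bmal1-/- arrays left and wild-type arrays right; points are arrays, bars are mean and SD (n = 3 each), and every axis starts at 0. The genotypes do not overlap in any panel but that of Cirbp, where the highest Bmal1-/- array (237.5) lies just above the lowest wild-type array (237.1).

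Hnrnpa1, which encodes a repressor of exon inclusion, gave 210.5, 208.3 and 157.8 in Bmal1-/- glands and 282.2, 255 and 277.8 in wild-type glands. The genotypes did not overlap, and the means were 192.2 ± 29.8 in Bmal1-/- and 271.7 ± 14.6 in wild type (SD, n = 3 each). Its log2 fold change was -0.48 (SE 0.11, limma adjusted p = 0.0325). The only other tested single-gene probe set of Hnrnpa1 read 192.8, 193.2 and 151.7 in Bmal1-/- against 191.2, 191.4 and 188.6 in wild type, a change of -0.09 (SE 0.11, limma adjusted p = 0.697). The brightest one carries the suffix _x, which Affymetrix gives to probe sets that can match other transcripts, and 3 further probe sets are assigned to Hnrnpa1 jointly with related loci. Those 3 changed by -0.40, 0.04 and -0.02, none past the test. The call was kept in 8 of 17 alternative settings and was lost when Bmal1-/- replicate 5 or 6 or wild-type replicate 1 or 3 was left out (adjusted p up to 0.109).

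Hnrnpc, whose product binds uridine tracts and packages pre-mRNA, gave 1282.6, 1323.9 and 1446.5 in Bmal1-/- glands against 1042.2, 1062.3 and 1181.5 in wild-type glands. All 3 Bmal1-/- arrays exceeded all 3 wild-type arrays. The log2 fold change was 0.30 (SE 0.08, limma adjusted p = 0.0406), and the other Hnrnpc probe set gave 0.26 without passing (adjusted p = 0.307). The call was kept in 9 of 17 alternative settings, and of the single arrays only wild-type replicate 3 could be left out without losing it (adjusted p up to 0.148).

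Among the 15 hnRNP genes not past the threshold, Hnrnpab and Hnrnph1 had the smallest p. Hnrnpab, an A/B-type hnRNP, read 1802.7, 1909 and 1399.5 in Bmal1-/- glands against 2597.4, 2080.7 and 1978.4 in wild-type glands, a log2 fold change of -0.38 (limma adjusted p = 0.086, SE 0.12). These values did not overlap, but the 4 other tested probe sets of Hnrnpab lay between -0.13 and 0.06. Hnrnph1, which binds guanine tracts, read 1059.9, 926.4 and 759.5 in Bmal1-/- against 1156.9, 1017 and 1104.6 in wild type with overlap, a change of -0.26 (SE 0.11, adjusted p = 0.176). Its other probe set, dim at means of 16.8 in Bmal1-/- and 32.1 in wild type, gave -0.55 with no overlap (limma adjusted p = 0.0555). That Bmal1-/- mean lies under 17.3, the lowest mean level tested, so only the wild-type values brought this probe set past the filter. Hnrnph1 passed when both probe sets were averaged (-0.41, limma adjusted p = 0.0219), but that average includes the dim one and adds no separate support. Hnrnpk, a poly-C binding protein gene whose probe set was the brightest of all 66 genes, read 2219.1, 2068.8 and 2090.8 in Bmal1-/- against 2460.4, 2131.2 and 2314.5 in wild type, which overlap (-0.11, 95% interval -0.26 to 0.04). The other Hnrnpk probe sets, all dimmer, gave -0.06, -0.33 and -0.50, none past the test. Only in the last did the genotypes not overlap (limma adjusted p = 0.0715). The remaining hnRNP genes ran from -0.16 for Hnrnpr to 0.24 for Hnrnph3, none past the test. The family of 18 thus had 1 gene higher and 2 lower, with 11 values below 0 and a median of -0.05. With equal array medians 12 of the 18 lay above 0, but that scaling shifts all genes upward: the family's median was then 0.04, against 0.08 over all genes.

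Srsf10 was the only SR protein gene of the 9 to pass. It encodes an SR protein that, in human cells, turns into a general splicing repressor when dephosphorylated after heat shock. Its intensity was 92.1, 104.7 and 93.1 in Bmal1-/- glands and 167.2, 134.6 and 129.8 in wild-type glands. The genotypes did not overlap, and wild-type replicate 1 stood above the other arrays. The means were 96.6 ± 7.00 in Bmal1-/- and 143.9 ± 20.4 in wild type (SD, n = 3 each), and the log2 fold change was -0.50 (SE 0.12, limma adjusted p = 0.0336). Its 3 dimmer probe sets gave -0.13, -0.26 and -0.22 and did not pass. The call was kept in 8 of 17 alternative settings, and of the single arrays only wild-type replicate 2 could be left out without losing it (adjusted p up to 0.11).

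Srsf2 and Srsf5, which encode SR proteins that promote exon inclusion, came next. Srsf2 read 632.6, 636.3 and 541.6 in Bmal1-/- glands against 678.4, 707.3 and 756.1 in wild-type glands, a log2 fold change of -0.24 (limma adjusted p = 0.124, SE 0.09). Srsf5 read 845.5, 911.1 and 920.7 in Bmal1-/- against 996.2, 967.9 and 1163.6 in wild type, a change of -0.22 (SE 0.08, limma adjusted p = 0.15). Neither gene's genotypes overlapped, yet neither passed. The other Srsf2 probe sets gave 0.01, -0.12 and, close to the lower limit of tested brightness, 0.17 with an SE of 0.25. The other 6 SR genes ran from -0.10 for Srsf3 to 0.13 for Srsf1, and 7 of the 9 had values below 0. Their median was -0.06, and with equal array medians, where 4 of the 9 lay below 0, it was 0.03, against 0.08 over all genes. Srsf6 entered at -0.004 through its brightest probe set. Its other probe sets gave -0.26 (limma adjusted p = 0.054) and -0.19 (limma adjusted p = 0.3). In both the genotypes did not overlap, yet neither passed.

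The SF3 genes gave calls in both directions. Sf3b5, a small SF3b subunit, read 165.6, 201 and 208.6 in Bmal1-/- glands and 142.6, 119.5 and 136 in wild-type glands. All Bmal1-/- arrays were above all wild-type arrays, with means of 191.7 ± 22.9 in Bmal1-/- and 132.7 ± 11.9 in wild type (SD, n = 3 each). The log2 fold change was 0.48 (SE 0.12, limma adjusted p = 0.0324). Only leaving out Bmal1-/- replicate 4 kept that call among the 6 single arrays (adjusted p up to 0.121), and 10 of 17 alternative settings kept it.

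Sf3b1, the largest SF3b subunit and the one that clasps the branch point, gave 500.9, 423.5 and 471.6 in Bmal1-/- glands and 562.3, 610.1 and 589.1 in wild-type glands. Again the genotypes were apart, with means of 465.3 ± 39.1 in Bmal1-/- and 587.2 ± 24.0 in wild type (SD, n = 3 each). The log2 fold change was -0.33 (SE 0.08, limma adjusted p = 0.0417), and its other probe sets gave -0.13 and -0.30 without passing. It did not pass without any 1 of the 6 arrays (adjusted p up to 0.166) and stayed called in 7 of 17 alternative settings. Sf3b6, whose product contacts the branch point adenosine, had a log2 fold change of -0.21 (limma adjusted p = 0.251, SE 0.10). Sf3a3, an SF3a subunit, had -0.17 (SE 0.11, limma adjusted p = 0.413). Other tested probe sets gave 0.02 and -0.35 for Sf3b6 and 0.12 for Sf3a3, none past the test. The other 5 genes lay between -0.04 and 0.14 by their brightest probe sets. A dimmer probe set of Sf3a2, 1 of these 5, gave -0.54 with no overlap (limma adjusted p = 0.0658).

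None of the 7 tested snRNP genes passed, but all 7 had a log2 fold change above 0, with a median of 0.17 and a range of 0.06 to 0.33. Over all tested genes, 4002 of 8033 lay above 0. All 7 also lay above 0 with quantile normalization (median 0.14, against 0.01 over all genes). Equal array medians (median 0.25, against 0.08) are no further check, because that scaling shifts all genes upward. Of the 3 tested Snrpa1 probe sets, 1 lay below 0, at -0.065, while all those of Snrpb2, Snrpd3 and Snrpg lay above 0. Snrpb, the Sm protein B gene, read 296.7, 335.5 and 254.2 in Bmal1-/- glands against 219.7, 250 and 223.5 in wild-type glands, with no overlap. Its log2 fold change was 0.33 (SE 0.11, limma adjusted p = 0.101). Snrpg, the Sm protein G gene, read 704.2, 674.8 and 656.8 in Bmal1-/- against 602.4, 581.2 and 626 in wild type, again with no overlap (0.17, SE 0.07, limma adjusted p = 0.214). In the other 5 the genotypes overlapped. The eighth gene, Snrpn, read at most 11.9 on any array through its only single-gene probe set and was not tested.

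Cirbp and the 20 tested RBM genes held no call. Cirbp gave 237.5, 203.2 and 162.7 in Bmal1-/- glands and 274.8, 237.1 and 274.6 in wild-type glands. Bmal1-/- replicate 4 reached the level of wild-type replicate 2, so the genotypes overlapped. The means were 201.1 ± 37.4 in Bmal1-/- and 262.2 ± 21.7 in wild type (SD, n = 3 each), and the log2 fold change was -0.37 (SE 0.13, 95% interval -0.64 to -0.10, limma adjusted p = 0.11). Cirbp has 1 probe set and passed under 0 of 17 alternative settings, with adjusted p between 0.0626 and 0.328.

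Rbm3, the other cold-inducible gene, has no single-gene probe set and so is not among the 66. A probe set that the annotation assigns jointly to Rbm3 and the pseudogene Rbm3-ps read 739.9, 600.6 and 561.9 in Bmal1-/- glands and 1203.5, 941.4 and 1099.8 in wild-type glands. The genotypes were well apart, with means of 634.1 ± 93.6 in Bmal1-/- and 1082 ± 132 in wild type (SD, n = 3 each). The log2 fold change of that probe set was -0.76 (SE 0.11, limma adjusted p = 0.0024), and it passed under all 16 alternative settings (adjusted p 0.00121 to 0.0275). The value cannot be assigned to either gene. Of the 20 probe sets shared between a gene of these families and another locus, it was the only one called.

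Rbm26, which in human cells is tied to the nuclear exosome, came closest to the threshold in its family. It read 80.1, 73.6 and 82.8 in Bmal1-/- glands against 148.4, 101.2 and 111.8 in wild-type glands, with no overlap and a log2 fold change of -0.51 (limma adjusted p = 0.0513, SE 0.14). It passed in 5 of 17 alternative settings, and its other probe sets gave 0.17 and -0.07. Rbm14, which encodes a coactivator and paraspeckle protein, read 129.7, 143.6 and 209.7 in Bmal1-/- against 109.7, 105.5 and 108.3 in wild type, a change of 0.49 (SE 0.15, limma adjusted p = 0.0759). The Bmal1-/- arrays of Rbm14 were spread far wider than its wild-type arrays, and its brightest probe set without an _x or _s suffix gave -0.05.

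Rbm38, an RNA stability factor induced by p53, was the dimmest tested gene of the set, at 11.5, 16.5 and 16.4 in Bmal1-/- glands against 31.7, 21.4 and 32.9 in wild-type glands. Its log2 fold change was -0.53 (SE 0.17, limma adjusted p = 0.0876), at intensities where the added 16 shrinks a difference. All its Bmal1-/- values lay under 17.3, the lowest mean level tested, so only its wild-type values brought Rbm38 past the filter. Just below the filter lay Rbm47, a cofactor of mRNA editing, at 8.7, 10.6 and 14.4 in Bmal1-/- against 14.5, 22.7 and 20.3 in wild type, which was not tested. The remaining RBM genes ran from -0.15 for Rbm28 to 0.37 for Rbm12, and Rbm8a, which encodes the exon junction protein Y14, had 0.13. In 10 of the 21 genes of this family the genotypes did not overlap (47.6%, 7 higher and 3 lower, against 26.4% of all tested genes, 13.7% higher and 12.7% lower), with 11 values above 0. Rbm38 is counted among those 3 lower genes.

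Probe sets of 1 gene can read different transcript ends, so each further probe set was set against the brightest of its gene, array by array. The 66 genes have 167 single-gene probe sets, and 10 of the 150 tested were called (6.67%, 2 higher and 8 lower, against 5.54% of all 13576). They belong to 7 genes, the 6 above and Srsf3. In 19 of the 40 genes with 2 or more tested probe sets, all values lay on 1 side of 0. None of the 86 pairs in these 40 genes differed past the threshold (limma, 19 at an unadjusted p under 0.05, 22.1%), where 2 of 4538 pairs over all genes did (0.0441%, 598 unadjusted, 13.2%).

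Srsf3, the smallest SR protein, had the pair with the smallest p. It and Hnrnpa2b1 are described here although their values were seen first. One of its dimmer probe sets read 138, 196.1 and 144.5 in Bmal1-/- glands against 354.5, 315.6 and 271 in wild-type glands, far apart, with a log2 fold change of -0.92 (limma adjusted p = 0.00242, SE 0.13). The brightest Srsf3 probe set read 610.8, 685.4 and 567.2 in Bmal1-/- against 637.6, 614.2 and 752.6 in wild type, which overlap, with a change of -0.10 (limma adjusted p = 0.597). The difference between these changes was -0.82 (SE 0.18, unadjusted p = 0.0013, limma adjusted p = 0.175), which did not pass. The called probe set carries the _x suffix, and the other 4 of Srsf3 gave -0.11, -0.06, 0.23 and -0.22.

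Hnrnpa2b1, an A/B-type hnRNP gene with roles in splicing and mRNA transport, also had probe sets with unlike values. Its brightest probe set read 839.5, 798.7 and 898.3 in Bmal1-/- glands against 914.2, 723.4 and 789.3 in wild-type glands, overlapping, at a log2 fold change of 0.07. The other 3 gave -0.64, -0.65 and -0.36 with limma adjusted p of 0.0757, 0.0681 and 0.0855. On all 3 the lowest array was Bmal1-/- replicate 6, at 246.5, 134.5 and 151.1. Their differences from the brightest, -0.71, -0.72 and -0.43, did not pass after adjustment (limma adjusted p = 0.283, 0.301 and 0.331). Bmal1-/- replicate 6 also had the lowest median log2 level over the tested genes of these families, 8.14, against 8.25 and 8.30 on the other Bmal1-/- arrays and 8.19 to 8.22 on the wild-type arrays.

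**Figure D3:**
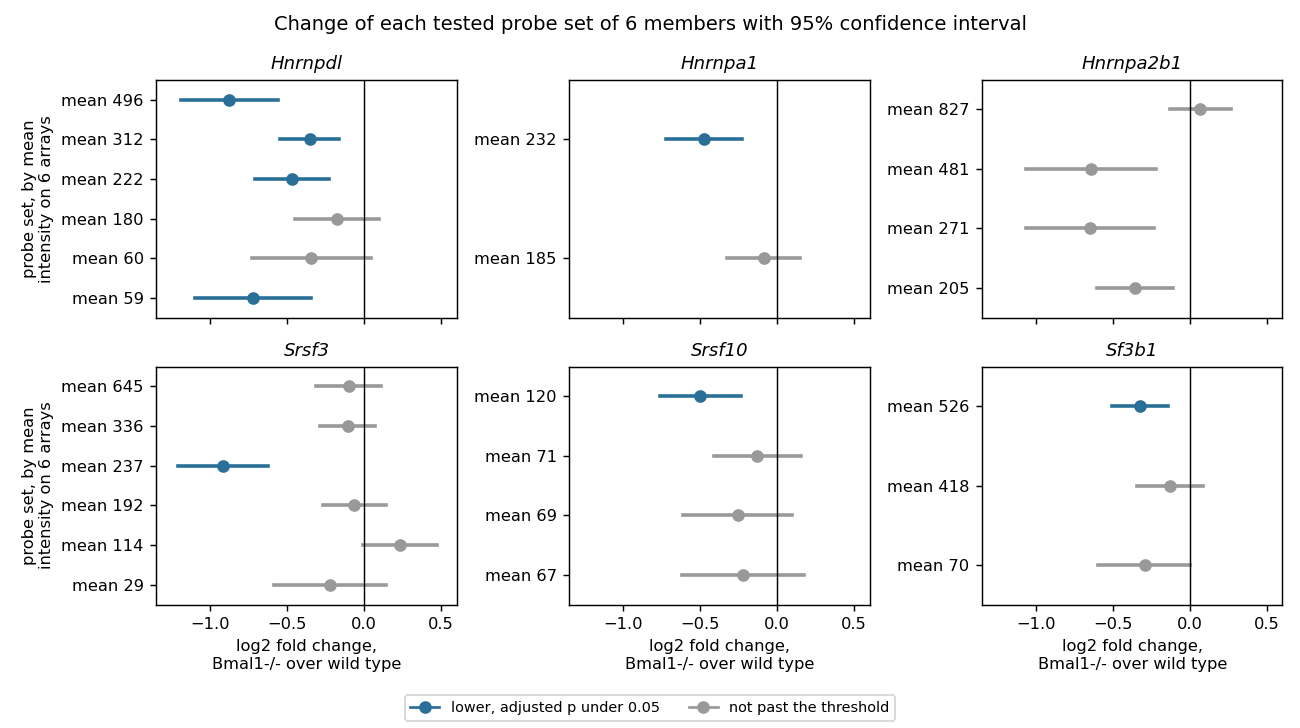
Log2 fold change (Bmal1-/- over wild type) with 95% interval of every tested single-gene probe set of 6 genes, ordered from the brightest at the top. All 6 probe sets of Hnrnpdl lie left of 0, while in Srsf3 a single dimmer probe set at -0.92 stands apart and in Hnrnpa2b1 the brightest lies at 0.07 and the other 3 to the left.

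Other genes of RNA processing were taken from lists of textbook members. Of 52 other spliceosome components tested, 2 were higher, none lower (3.85% called, against 5.68% of all genes), and the median log2 fold change was 0.07. These were Ddx39b, the helicase UAP56, and Prpf19, a spliceosomal ubiquitin ligase. Ddx39b read 836.4, 768 and 794.1 in Bmal1-/- glands against 649.7, 657 and 619.6 in wild-type glands, apart on every array, with a log2 fold change of 0.31 (limma adjusted p = 0.0294, SE 0.07). Prpf19 read 610.4, 558.9 and 584.2 in Bmal1-/- against 453.1, 494.6 and 470.5 in wild type, also apart (0.30, SE 0.08, limma adjusted p = 0.0445). Both calls survived only the removal of wild-type replicate 2 among the single arrays (adjusted p up to 0.106 for Ddx39b and 0.14 for Prpf19). Prpf19 is read by an _x probe set and was not called when those were removed.

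In 4 further lists limma called no gene, against 456 of 8033 (5.68%) over all tested genes. Lists this short would hold few calls at that share. Over all tested genes, 1729 of 8033 had an unadjusted p under 0.05. The 54 other splicing regulators had a median of 0.01, with 7 at an unadjusted p under 0.05. Elavl2 (-0.37, adjusted p = 0.124) and Tra2a (-0.30, adjusted p = 0.136) had the smallest p among them. The 11 kinases of SR proteins had a median of -0.03, with 1 at an unadjusted p under 0.05. That was Clk1 (0.27, adjusted p = 0.195), followed by Prpf4b (-0.19, adjusted p = 0.306). The 9 genes of the exon junction complex and nonsense-mediated decay had a median of 0.11 and 0 at an unadjusted p under 0.05, and Alyref (0.20, adjusted p = 0.316) and Casc3 (0.15, adjusted p = 0.495) led them. The 21 cleavage and polyadenylation genes had a median of 0.06 with 4 at an unadjusted p under 0.05, led by Cstf2t (0.24, adjusted p = 0.0987) and Fip1l1 (0.36, adjusted p = 0.136). Without wild-type replicate 2, 1 gene passed in each of 3 of these lists: regulators, kinases, and cleavage and polyadenylation.

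Heat-induced chaperones were set beside Cirbp and Rbm3, since warming raises many of them and cooling raises Cirbp and Rbm3. Temperature is not among the sample labels used here, and whether it had a part in these values was not tested. Of 18 tested, 4 were higher and none lower (22.2% called, against 5.68% of all genes), and 6 had values below 0. Hspa8, the constitutive HSC70, read 3287.5, 3176.7 and 3730.5 in Bmal1-/- glands against 2074.5, 2678.2 and 2215.5 in wild-type glands, apart on every array. Its log2 fold change was 0.55 (SE 0.09, limma adjusted p = 0.00564), but its brightest probe set without an _x or _s suffix gave -0.08 (adjusted p = 0.837). Hsph1, the chaperone HSP105, was higher by 0.41 (SE 0.10, limma adjusted p = 0.0299). Ahsa1, an activator of HSP90, was higher by 0.31 (SE 0.08, limma adjusted p = 0.0456), and Hspd1, the mitochondrial chaperonin HSP60, by 0.24 (SE 0.07, limma adjusted p = 0.0491). Ahsa1 and Hspd1 kept no call with 5 arrays, whichever was removed, and Hsph1 kept none when Bmal1-/- replicate 4 or 6 or wild-type replicate 2 or 3 was left out. Among those with values below 0 were Hspa1b (-0.45, limma adjusted p = 0.331), Hsp90aa1 (-0.20, 0.399) and Hspb1 (-0.15, 0.414), and the list's median was 0.07.

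**Figure D4:**
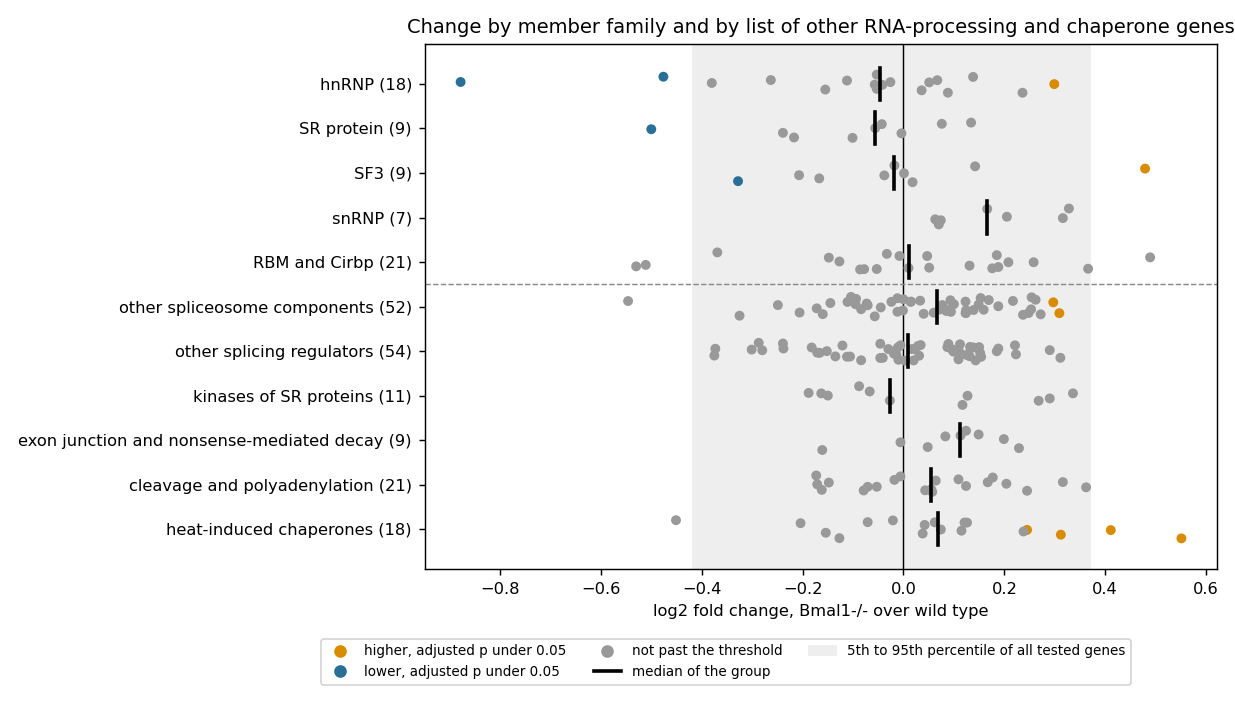
Log2 fold change (Bmal1-/- over wild type) of each tested gene in the 5 families (above the dashed line) and in 6 lists of other RNA-processing and chaperone genes, with medians as bars and the number tested in brackets; the grey band spans the 5th to 95th percentile of all tested genes, -0.42 to 0.37. Most genes lie inside the band, Hnrnpdl lies furthest outside it on the left at -0.88, and Hspa8 furthest on the right at 0.55.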

How the data were processed

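The deposited table holds 1 linear intensity per probe set and array, made by the authors with MAS5 per the submitters' processing notes; the sources used here state neither its version nor a target value nor detection calls. MAS5 subtracts a mismatch-based background, so dim values are noisy. Of 22690 probe sets, 64 controls were left out; the platform annotation gives 20380 of the others 1 gene, 691 several and 1555 none. Genes matched RefSeq's mouse table for 66 of 66 members.

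Values were taken as log2(intensity + 16), which understates changes of dim genes, with no further normalization. The brightest 60% of probe sets by mean level (13576, the dimmest at an intensity of 17.3) were tested in R 4.3.3 with limma 3.58.1, using lmFit and two-sided eBayes with an intensity trend. The threshold was a Benjamini-Hochberg adjusted p of 0.05. The median SE was 0.13, and 0.11 over the tested members. The same model on per-array differences compared probe sets of 1 gene. The procedure was tested on simulated data.

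Arrays were grouped by their labels; no batch or scan information is given there. No array was a copy of another, since any 2 shared at most 0.302% of their tested values exactly. The members and lists were chosen with earlier results of these data known, so their counts are descriptions. Genes were named by a rule: members past the threshold, Cirbp and Rbm3, the 2 with the smallest p among the rest of each family, the 3 brightest, those nearest the filter, and from each list up to 4 past the threshold or the 2 with the smallest p; a few more appear at the ends of ranges or with an E-box. The settings varied were the pseudocount (1 or 64), the scaling (quantile normalization or equal array medians), the filter (none or the top 40% of probe sets), no trend, robust estimation, array weights, each array left out, the mean of a gene's probe sets, and removal of _x_at and _s_at probe sets.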

Additional observations from a re-analysis of the deposited data

How the results depend on the processing

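Over 34 results with an adjusted p and their 562 alternatives, 462 kept direction and side of the threshold, 85 kept direction but lost the call, 12 gained one and 3 reversed. Hnrnpdl and the probe set shared by Rbm3 and Rbm3-ps kept their calls in every alternative run. The reversals came without _x_at and _s_at probe sets, where Rbm14 was at -0.045, Srsf2 at 0.165 and Hspa8 at -0.075; another probe set stands for the gene there, in Srsf2 a dim one. The count of members called, 6 as reported, was 1 with no filter on low values, 1 without the variance trend and 3 with probe sets averaged, where Hnrnph1 joined Hnrnpdl and Sf3b5; the higher calls were then 0, 0 and 1 and the lower calls 1, 1 and 2. Equal array medians gave 6 higher and 1 lower. Leaving out 1 array gave 1 to 5 members called, 0 to 1 higher and 1 to 5 lower. The member median was 0.077 with equal array medians and -0.029 with probe sets averaged, against an SD between arrays of 0.022. The count of other spliceosome components called, 2 as reported, was 1 with quantile normalization, 0 with no filter, 0 without the trend, and 0 to 4 with 1 array left out. For the chaperones, 4 as reported, it was 2, 1 and 0 under those settings, and 1 to 3 with 1 array left out. Counts above those reported, and some within them, include newly called genes. The cleavage and polyadenylation list gained 1 call with equal array medians, and leaving out 1 array gave 0 to 1 call there, among the other splicing regulators and among the SR protein kinases. No pair of probe sets was called among the members under any alternative run. Beyond the changes of filter, scaling, probe set and array that define the settings, the cause was not tested. No paired analysis was possible because the replicate numbers 1 to 3 and 4 to 6 are not shared between the genotypes. Probe sets near the lower limit of brightness carry little signal over background, which limits Rbm38, Rbm19 and the untested Rbm47 and Snrpn.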

Other observations

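Several genes of these families are read best by probe sets that the annotation shares with another locus, so their values belong to no single gene. The probe sets shared by Snrpn, which encodes the Sm protein N, and the overlapping Snurf gave log2 fold changes of 0.29, 0.16, -0.08 and -0.04. The one with the smallest p read 324.7, 323.5 and 376.7 in Bmal1-/- glands against 281.1, 266.9 and 277 in wild-type glands, with no overlap (limma adjusted p = 0.0776). The probe set shared by Snrpa, a U1 snRNP protein gene, with predicted loci read 226.7, 221 and 214.2 in Bmal1-/- against 155.8, 197.1 and 168.4 in wild type, also with no overlap (0.32, limma adjusted p = 0.0903). That of Snrpd2 gave 0.28 (limma adjusted p = 0.181) and that of Snrpd1 gave -0.12 (limma adjusted p = 0.573). The 4 probe sets shared by Hnrnpa3 and a predicted locus ran from -0.08 to 0.31, none past the threshold.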
